A study of Eucalyptus globulus and Eucalyptus grandis with 36 samples.

Results

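Stems of Eucalyptus grandis seedlings kept at 10 °C were compared with stems kept at the control temperature of 20 °C, both in ambient CO2. Eucalyptus grandis is a fast-growing subtropical tree planted for pulp wood. The comparison takes every gene of the authors' table of E. grandis at 3 temperatures, which is 547 of the 8555 genes that stand in the 4 tables used here. A gene was called higher or lower where the authors had selected it and its values at 10 and 20 °C differed by at least 1 on the log2 scale, a 2-fold difference.

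RNA was sequenced from whole stems of 3 samples per group, so 6 of the 36 samples of the series enter the comparison. Per the labels, the seedlings came from clonal seed and stood about 25 cm tall when they entered the growth chambers. Red and blue lamps at 280 µmol m-2 s-1 then lit them for 10 h daily over 35 days. The protocols give the age of the seedlings as 6 months, whereas the design text gives plants 35 days old. The group titled 10 °C was kept at 10 to 12 °C and the control, titled 20 °C, at 22 to 24 °C, both at 390 ppm CO2 per the protocols and 400 ppm per the design text. Other groups are shown beside these only for the same genes: E. grandis at 30 °C (33 to 35 °C) in ambient CO2, E. grandis at 10 °C and 700 ppm CO2, and Eucalyptus globulus, a eucalypt of cooler climates, at 10 and 20 °C in ambient CO2. Temperatures were set chamber by chamber, so chamber and temperature cannot be told apart. Whether the 3 samples per group were 3 separate plants is not given in the labels.

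Every value below is the authors' single group value, normalised and on a log2 scale with a floor of 0. No SD, depth or p-value for this pair of groups can be set beside it, so every difference is a description of these groups and none was tested. In whole stems, fewer cells of a type and less RNA per cell cannot be told apart. The tables hold only selected genes, so a marker absent from the stem would mostly not be listed. The values below describe the listed markers and cannot check the tissue label. None of the 33 markers of xylem, phloem, cork and epidermis, green cortex or dividing cells listed in the E. grandis tables was at 0 at 20 °C. The 16 green cortex markers had values between 7.68 and 13.33, the 8 of cork and epidermis between 0.34 and 12.96, the 4 of phloem between 2.64 and 10.59, the 4 of dividing cells between 3.01 and 13.57, and the single xylem marker had 6.06.

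Cold acclimation is the process by which a chill of some days or weeks raises a plant's tolerance to frost. Its best known regulators are the C-repeat-binding factors (CBF), transcription factors of the AP2/ERF family that are induced within hours of cold in Arabidopsis and switch on genes for dehydrins, galactinol synthases and other protectants. Galactinol and raffinose, soluble sugars that shield membranes and proteins, pile up in many plants in the cold, and phenolic compounds and wall polymers are often remodelled. In eucalypts the CBF genes form an expanded tandem cluster. The plants measured here had been cold for weeks, not hours.

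Of the 547 genes, 378 (69.1%) were called, 142 higher at 10 °C (26.0% of the table) and 236 lower (43.1%). The values at which genes were selected come from all 3 temperatures, and every gene of the table is at least 2-fold apart in some pair, so the share called is set by that selection. The median fold difference was 3.36 among the higher genes and 3.37 among the lower ones. At least 4-fold, 55 genes were higher and 93 lower. The split depends on the scaling. The median difference over the table was -0.77, and with that median subtracted 202 genes were higher and 115 lower, so the share of higher genes among those called went from 37.6% to 63.7%. The median is taken over selected genes only, so the shift over all genes is not known. A shift of this size cannot turn the direction of a called gene, but 121 lower genes, those less than 3.42-fold apart, were no longer called, and 60 further genes were called higher. Counts of a group "with the median subtracted" refer to this scaling.

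**Figure D1:**
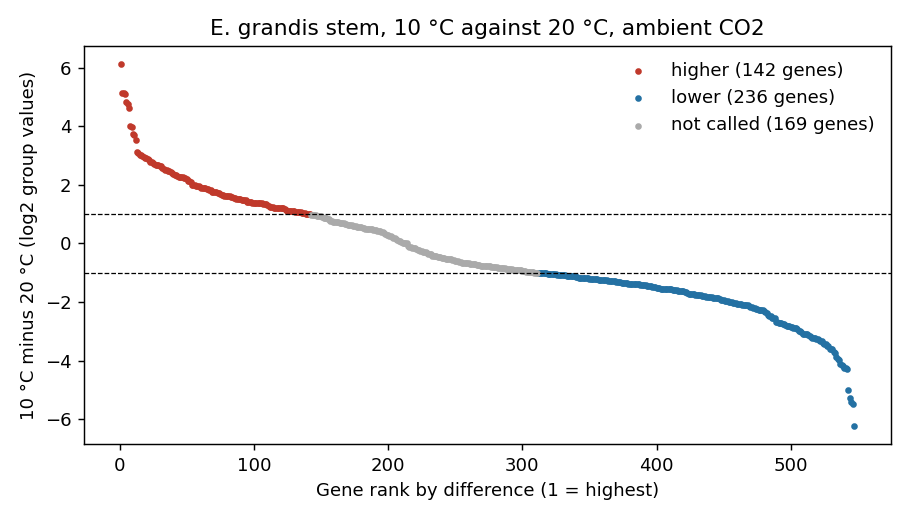
Difference of the authors' log2 group values, 10 minus 20 °C, for all 547 genes of the table in order of size (horizontal axis, rank; vertical axis, log2 difference), with lines at the 2-fold call. The lower genes (236) outnumber the higher ones (142) on this scale, and the extremes lie at 6.12 and -6.23.

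The genes for CBF factors were lower at 10 °C in all 10 cases in the table. Of these, 8 are described as C-repeat-binding factor 4 and 2 as C-repeat/DRE binding factor 1. Their median difference was -3.63 on the log2 scale, which is 12.4-fold, against -0.77 over the table, and the range ran from -5.26 to -1.85. At 20 °C the 10 genes had values between 5.24 and 10.09, and at 10 °C between 0.96 and 8.24.

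Eucgr.A02824 was furthest apart, with 0.96 at 10 °C, 6.22 at 20 °C and 6.21 at 30 °C, a 38.3-fold difference between 10 and 20 °C. Its neighbours Eucgr.A02821 (1.06 and 5.24 at 10 and 20 °C), Eucgr.A02823 (1.07 and 5.31) and Eucgr.A02826 (1.02 and 5.30) also had values below 2 in the cold. These 4 genes were the ones close to the floor at 10 °C, where a log2 difference is least certain. The other members kept clear values at 10 °C. Eucgr.A02825 had 4.24 at 10 °C against 8.48 at 20 °C, and Eucgr.A02822 had 6.21 against 9.25. Eucgr.A02827 stood at 5.94 against 8.67, a 6.63-fold difference. The smallest difference belonged to Eucgr.A02820, with 8.24 at 10 °C, 10.09 at 20 °C and 10.68 at 30 °C. Both genes described as factor 1 were lower as well, Eucgr.A02831 by 7.97-fold (5.13 against 8.13) and Eucgr.A02834 by 8.47-fold (6.53 against 9.61).

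All 10 lie on 1 pseudo-chromosome of the file within 93.2 kb, measured between gene ends, with no gap above 34.8 kb between neighbouring ends. Such copies may share reads, so the value of a single copy is uncertain and the 10 are not independent of each other. At 30 °C their values lay between 5.10 and 10.68, and 3 of the 10 were at least 2-fold above 20 °C. In 10 °C with elevated CO2, 9 of them carried a value, from 0 to 6.10 with 2 listed at 0, and their median difference from the same 20 °C control was -4.78.

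**Figure D2:**
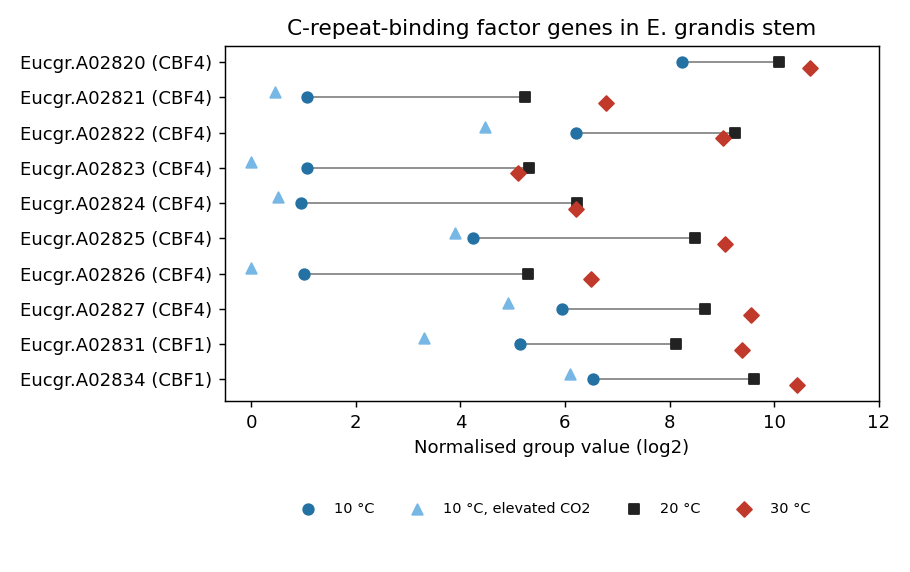
Authors' log2 group value (horizontal axis) of each of the 10 CBF genes (vertical axis) in E. grandis stems at 10 °C (circles), 20 °C (squares) and 30 °C (diamonds) in ambient CO2 and, where listed, at 10 °C in elevated CO2 (triangles), with lines joining 10 and 20 °C. Every 10 °C point in ambient CO2 lies below the 20 °C point of the same gene, by 1.85 to 5.26.

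The rest of the AP2/ERF family, which also holds ethylene response factors, showed the same lean with smaller sizes. Of 7 further members listed, 5 were lower and 0 higher, with a median of -1.20, and only 1 of the 5 was still called once the median of the table was subtracted. Redox responsive transcription factor 1 (Eucgr.I01153), which takes part in the build-up of reactive oxygen in Arabidopsis, had 10.64 at 10 °C, 12.41 at 20 °C and 12.37 at 30 °C. A gene without a subfamily name (Eucgr.D01731) had 9.58, 11.34 and 12.73. Both genes described as related to AP2 4, a factor linked to light and drought responses in Arabidopsis, were lower by 2.25-fold (Eucgr.F02440) and 2.66-fold (Eucgr.F00497). A zinc finger repressor of stress genes from another family, salt tolerance zinc finger (Eucgr.F00114), had 12.55 against 13.78 at 20 °C. Together with the CBF genes, 15 of 17 AP2/ERF genes of the table were lower, 11 with the median subtracted.

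Other regulators went both ways. A basic helix-loop-helix gene (Eucgr.H00196), from a large family of transcription factors, was 8.03-fold higher, with 8.89 at 10 °C, 5.89 at 20 °C and 6.03 at 30 °C, and another (Eucgr.D00509) was 2.91-fold lower. LOB domain-containing protein 40 (Eucgr.F02492) was 3.17-fold higher. Of 4 NAC factors, a family with roles in walls and ageing, 3 were lower and 0 higher, 2 and 0 with the median subtracted, led by Eucgr.B03208, described as NAC-like and activated by AP3/PI, at 4.98-fold (5.61 against 7.93). Among 4 zinc fingers of the CCCH type 3 were lower and 0 higher, 2 and 0 with the median subtracted. Eucgr.C02990 had 7.67 at 10 °C, 11.41 at 20 °C and 12.88 at 30 °C, a 13.3-fold difference between the first pair. MYB factors had 3 higher and 2 lower of 7, 3 and 1 with the median subtracted. Myb domain protein 12 (Eucgr.H01058), an activator of flavonol genes in Arabidopsis, was 4.77-fold higher, with 6.79, 4.53 and 2.45 at 10, 20 and 30 °C. Myb domain protein 113 (Eucgr.F02843), an activator of anthocyanin genes, was hardly detected, at 1.49 against 0.09. Myb domain protein 23 (Eucgr.I01791), a trichome regulator in Arabidopsis, was listed at 0 at 10 °C against 4.14 at 20 °C and 0.19 at 30 °C. No WRKY factor stood in the table.

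The cold and dehydration list as a whole had 16 members in the table, 3 higher and 13 lower, with a median of -2.86. With the median of the table subtracted it held 3 higher and 11 lower. The 10 CBF genes make up most of its lower side, and the list's name does not describe their direction here. Outside the CBF genes it consists of galactinol and raffinose synthases and of soybean gene regulated by cold-2 (Eucgr.H03902), which was 2.95-fold lower (8.49 against 10.05).

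Genes for raffinose sugars split by copy, 3 higher and 2 lower of 5, or 3 and 1 with the median subtracted. Galactinol synthase makes galactinol, the donor for raffinose, and raffinose synthase makes the sugar itself. Galactinol synthase 2 (Eucgr.B03987) was 7.78-fold higher, with 8.21 at 10 °C, 5.25 at 20 °C and 6.23 at 30 °C. Galactinol synthase 1 (Eucgr.K03563) was 5.09-fold higher, with 11.28, 8.93 and 9.80. A raffinose synthase family gene (Eucgr.J02233) was 5.56-fold higher, from 6.52 at 20 °C, with 6.29 at 30 °C. Against these, 2 other copies of galactinol synthase 2 were lower, Eucgr.L00251 by 4.83-fold (5.55 against 7.82) and Eucgr.L00243 by 2.28-fold (5.71 against 6.90). At 30 °C these 2 lower copies had their highest values of the 3 temperatures, 9.61 and 7.14.

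Further genes of carbohydrate use were higher in 2 of 3 cases, and in all 3 with the median subtracted. Phosphofructokinase 3 (Eucgr.C00952), an enzyme of glycolysis, was 3.37-fold higher. A glycosyl hydrolase of family 32 (Eucgr.A02888), the family of invertases, was 2.34-fold higher. A phosphoglycerate mutase family gene (Eucgr.E00644) was 7.57-fold higher, with 9.59 against 6.67, and another (Eucgr.I00958) was 2.94-fold lower.

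Light-related genes included 2 of the 10 highest genes with a description. Both genes of the chlorophyll A-B binding family were higher at 10 °C. This description covers light-harvesting antenna proteins and their early light-induced relatives, and the file does not say which these are. Eucgr.B01896 had 11.57 at 10 °C, 6.43 at 20 °C and 4.96 at 30 °C, 35.3-fold between 10 and 20 °C. Eucgr.B01008 had 12.45, 7.69 and 6.07, 26.9-fold between 10 and 20 °C. The only other photosynthesis gene of the table, photosystem I subunit F, was not called at -0.99. In 10 °C with elevated CO2 the first pair stood at 13.05 and 13.85.

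Clock and light signalling genes had 2 higher and 2 lower of 4, or 2 and 1 with the median subtracted, where FKF1 was no longer called. A DNA photolyase family gene (Eucgr.J03037), from the family of blue-light repair enzymes and cryptochromes, was 3.65-fold higher (8.63 against 6.76). A gene with a TIFY domain and a divergent CCT motif (Eucgr.F02456) was 3.33-fold higher. FKF1 (Eucgr.G02098), a blue-light sensing F-box protein that times flowering by day length in Arabidopsis, was 3.03-fold lower, with 11.06 against 12.66. A phototropic-responsive NPH3 family gene (Eucgr.B03325), from a family needed for bending towards light, was 3.78-fold lower.

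Genes of phenylpropanoid and lignin synthesis, which turn phenylalanine into lignin units and other phenolics, were higher in 7 of 9 cases and lower in 2, with a median of 1.82 where the table had -0.77. The higher members came from several steps. Dehydroquinate dehydratase with shikimate dehydrogenase (Eucgr.H01214), which supplies the aromatic pathway, was 4.44-fold higher, with 12.24 at 10 °C against 10.09 at 20 °C. Chorismate mutase 2 (Eucgr.J00167), the branch towards phenylalanine, was just past the call at 1.01. Cinnamate-4-hydroxylase (Eucgr.C00065), the second enzyme of the phenylpropanoid pathway, had 8.49 at 10 °C, 6.68 at 20 °C and 6.15 at 30 °C. Sinapoylglucose 1 (Eucgr.I01042), which moves sinapoyl groups onto malate in Arabidopsis, was 3.97-fold higher.

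Laccases are copper oxidases, some of which couple lignin units in the wall. All 3 laccases of the table were higher. Eucgr.F02649, described as laccase 14, had 10.32 at 10 °C, 8.37 at 20 °C and 7.39 at 30 °C. Its neighbour Eucgr.F02646, also laccase 14, had 9.45, 7.57 and 6.16. Laccase 17 (Eucgr.L00355), which acts in stem lignin in Arabidopsis, had 7.67, 6.06 and 5.11. In each of the 3 genes the order of the group values was 10, 20, then 30 °C from high to low.

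The 2 lower members of this list were phenylalanine ammonia-lyase 2 (Eucgr.C03570), the entry enzyme of the pathway, at 2.17-fold (8.71 against 9.83), and O-methyltransferase 1 (Eucgr.A01865), which methylates lignin units and flavonols. The second of these had 0.47 at 10 °C, 3.97 at 20 °C and 0.14 at 30 °C, so the 20 °C group stood apart from both other temperatures. With the median subtracted, phenylalanine ammonia-lyase 2 was no longer called and the list held 7 higher and 1 lower. With a pseudocount of 16 on the linear scale instead, O-methyltransferase 1, near the floor at 10 °C, lost its call at -0.86. The list then held 6 higher and 1 lower. A UDP-glucosyl transferase (Eucgr.L01657), from a subfamily that attaches glucose to lignin precursors in Arabidopsis, was 3.96-fold lower (7.83 against 9.82). Dihydroflavonol 4-reductase (Eucgr.D02358), an enzyme of anthocyanin and tannin synthesis and the only flavonoid gene listed, was 2.17-fold higher. Of 7 serine carboxypeptidase-like proteins, a family that includes acyltransferases using glucose esters of phenolics, 5 were higher and 1 lower, 6 and 0 with the median subtracted. By contrast, 5 of 7 acyltransferases of the HXXXD type were lower and 1 higher, and with the median subtracted 2 were lower and 1 higher.

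**Figure D3:**
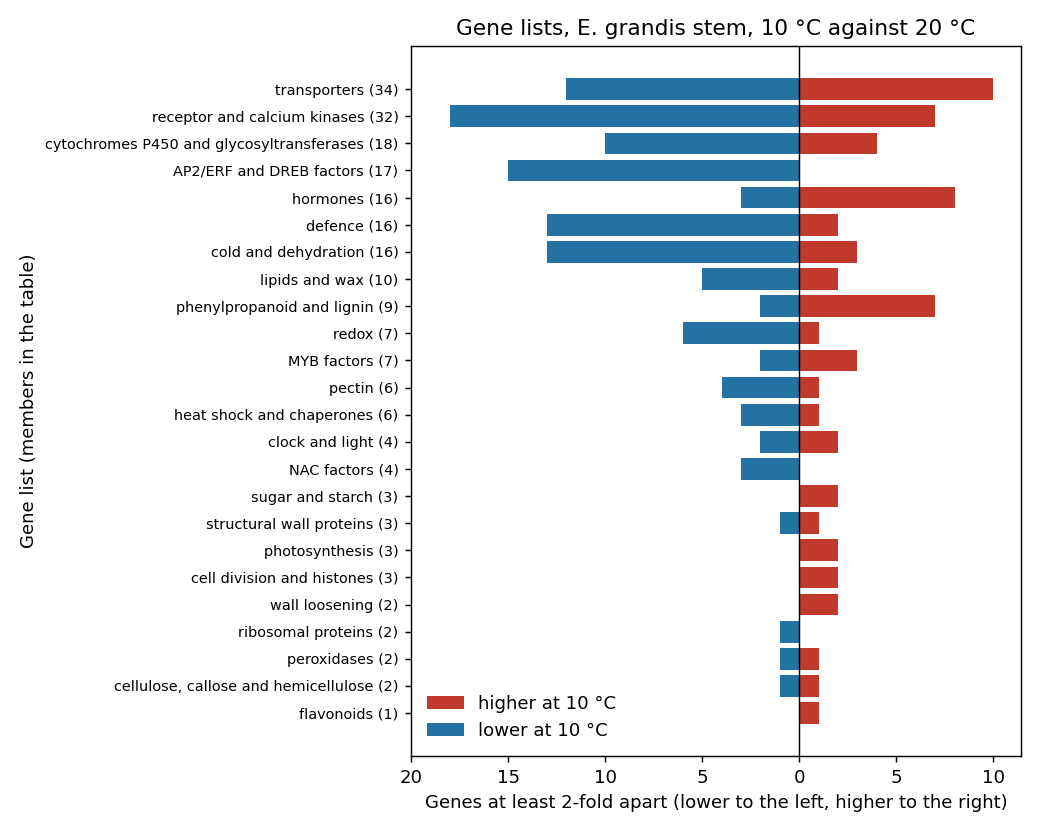
Number of genes called higher and lower at 10 °C (horizontal axis, counts to the right and left of 0) in each gene list (vertical axis), all from the table of 547 genes. The phenylpropanoid and lignin list (7 higher, 2 lower) and the hormone list (8 and 3) lean to higher, while AP2/ERF factors (0 and 15) and defence (2 and 13) lean to lower.

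Wall genes were few and went both ways. The structural protein list had 1 higher and 1 lower of 3, the cellulose, callose and hemicellulose list 1 and 1 of 2 and the peroxidases 1 and 1 of 2, and each of these lower members lost its call with the median subtracted. Arabinogalactan protein 16 (Eucgr.C03852), a small wall glycoprotein, was 13.1-fold higher, with 8.04, 4.33 and 6.08 at 10, 20 and 30 °C. A hydroxyproline-rich glycoprotein of the late embryogenesis abundant class (Eucgr.B03782) was 2.15-fold lower (11.57 against 12.68). Both xyloglucan transferases of the table, enzymes that cut and rejoin xyloglucan and so loosen or strengthen the wall, were higher, by 2.85-fold (Eucgr.D01294) and 2.34-fold (Eucgr.J01663). Beta-galactosidases 10 (Eucgr.I00108) and 5 (Eucgr.F01855), which trim wall polysaccharides, were 4.24-fold and 3.36-fold higher. Germin 3 (Eucgr.F04417), an apoplastic glycoprotein, was 8.73-fold higher, with 10.37 against 7.25. Glucan synthase-like 7 (Eucgr.A02008), which makes callose in phloem sieve plates in Arabidopsis, was 2.31-fold higher, and phloem protein 2-A1 (Eucgr.J02719), a lectin of sieve elements, 2.41-fold higher. Cellulose synthase like E1 (Eucgr.F03681) was 2.13-fold lower. No cellulose synthase of the secondary wall stood in the table.

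The pectin list was mostly lower. All 3 genes of the invertase/pectin methylesterase inhibitor superfamily were lower, Eucgr.K00155 by 7.42-fold (8.29 against 11.18), Eucgr.C00760 by 2.63-fold and Eucgr.A02883 by 2.27-fold. This superfamily holds inhibitors of invertase as well as inhibitors of the enzymes that strip methyl groups from pectin, and the description does not say which these are. Polygalacturonase inhibiting protein 1 (Eucgr.A02432), which blocks pectin-cutting enzymes of pathogens, was 4.20-fold lower, with 5.27, 7.34 and 9.12 at 10, 20 and 30 °C. A pectin acetylesterase (Eucgr.H01338), which removes acetyl groups, was 4.01-fold higher (11.40 against 9.40). Counted over the list, 1 of 6 was higher and 4 lower, and with the median subtracted 2 were higher and 2 lower.

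Hormone genes leaned to higher, with 8 higher and 3 lower of 16 and a median of 1.08, and 9 and 2 with the median subtracted. All 3 genes described as ethylene-forming enzyme, the oxidase that makes ethylene in its last step, were higher and lie within 60.3 kb of each other. Eucgr.K00747 had 10.59 at 10 °C, 8.08 at 20 °C and 9.56 at 30 °C. Eucgr.K00749 had 9.63, 6.86 and 7.97. Eucgr.K00742 had 6.49, 0.36 and 4.73, and its 69.8-fold difference, the largest among the higher genes with both values above 0, rests on a 20 °C value near the floor. For this trio the 20 °C group was the lowest of the 3 temperatures.

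Jasmonate genes were higher at 2 points. Oxophytodienoate-reductase 3 (Eucgr.C03551), which acts in jasmonate synthesis, was 16.1-fold higher, with 6.65, 2.64 and 1.20 at 10, 20 and 30 °C. Jasmonate-zim-domain protein 10 (Eucgr.G01954), a repressor that jasmonate itself induces in Arabidopsis, was 4.87-fold higher, with 12.46, 10.17 and 11.45. A second oxophytodienoate-reductase 3 gene of the table, Eucgr.C00820, was not called at 0.96.

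For abscisic acid, the drought hormone, a single gene for making it and a single gene for breaking it were called in opposite directions. Nine-cis-epoxycarotenoid dioxygenase 2 (Eucgr.F03199), from the family of enzymes that limits its synthesis, was 2.46-fold lower, with 10.63 against 11.93. With the median subtracted this gene was no longer called, at -0.53. A cytochrome P450 of the subfamily that inactivates abscisic acid by hydroxylation (Eucgr.F00225) was 3.72-fold higher, with 9.64 against 7.75, and kept its call. Gibberellin 2-oxidase 8 (Eucgr.G02012), which inactivates gibberellin, was 2.31-fold higher. ILR-like 2 (Eucgr.B03368), which frees auxin from its amino acid conjugates, was 4.03-fold higher. Cytokinin oxidase 5 (Eucgr.F01857), which breaks down cytokinin, was 4.31-fold lower, with 3.40, 5.51 and 6.88. A dormancy and auxin associated gene (Eucgr.I02133) was 4.25-fold lower, at 8.59 against 10.68.

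Defence genes were mostly lower, with 13 lower and 2 higher of 16 and a median of -1.67, and with the median subtracted 8 were lower and 3 higher. Much of this comes from a single fold of small proteins. MLP-like and polyketide cyclase proteins, which bind hydrophobic ligands and are related to the major birch allergen, were lower in 7 of 8 cases with a median of -3.12. Eucgr.L02592 had 1.13 at 10 °C, 7.37 at 20 °C and 8.24 at 30 °C, a 75.3-fold difference and the lowest of the table. MLP-like protein 328 (Eucgr.B02916) had 2.38, 7.37 and 8.99, 31.9-fold. Eucgr.G02175 had 5.58, 9.52 and 10.18. With the median subtracted 7 of this family were still lower and 1 was higher.

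All 4 genes described as disease resistance proteins, intracellular or membrane receptors for pathogens, were lower, by 2.38 to 6.60-fold, but only 1 was still called with the median subtracted. Both genes described as NDR1/HIN1-like 2 were lower by 2.07-fold (Eucgr.K02614) and 2.36-fold (Eucgr.K02612), and neither was still called with the median subtracted. On the higher side, a thaumatin family pathogenesis-related gene (Eucgr.I01898) was 3.61-fold higher, with 8.97 against 7.11. Terpene synthase 21 (Eucgr.D01104), which makes volatile sesquiterpenes in Arabidopsis, was listed at 0 at 20 and 30 °C and had 1.84 at 10 °C.

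Receptor and calcium kinases were lower in 18 and higher in 7 of 32 cases, 11 and 9 with the median subtracted. Among all 547 genes, 43.1% were lower and 26.0% higher. Whether the kinase list departs from these shares was not tested. The kinds of outer domain differed in their counts, and these differences were not tested. Both wall-associated kinases, which bind pectin, were higher, Eucgr.A02057 by 5.59-fold (7.05 against 4.56) and Eucgr.K02556 by 2.62-fold. S-locus lectin kinases had 3 higher and 1 lower of 5, 4 and 1 with the median subtracted. Eucgr.E03663 had 5.77 at 10 °C, 2.75 at 20 °C and 2.81 at 30 °C, while the other two higher genes were listed at 0 at 20 °C. The single lower one, Eucgr.K03350, had 7.53 against 9.38. All 3 concanavalin A-like and other lectin kinases were lower, Eucgr.G01009 by 7.42-fold, Eucgr.G01010 by 5.83-fold and Eucgr.L02972 by 3.67-fold. Leucine-rich repeat kinases had 1 higher and 5 lower of 8, 2 and 3 with the median subtracted, led by Eucgr.K01165 at 11.4-fold (5.05 against 8.56). CBL-interacting protein kinase 25 (Eucgr.J03116), which relays calcium signals, was 3.89-fold lower, with 9.72 against 11.68.

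Redox genes were lower in 6 of 7 cases, 4 with the median subtracted. All 4 thioredoxins and glutaredoxins, small proteins that reduce disulphide bonds, were lower, from 2.61-fold for Eucgr.A02077 to 9.36-fold for Eucgr.K03442, and 3 of the 4 were still called with the median subtracted. Both glutathione transferases were lower, Eucgr.L01482 by 4.75-fold and Eucgr.K01231 by 2.58-fold, the second of which lost its call with the median subtracted. The 1 higher member was alternative oxidase 1D (Eucgr.E01214), which bypasses part of the mitochondrial electron chain, at 2.03-fold. Alcohol dehydrogenase 1 (Eucgr.F02744), an enzyme of fermentation, was 2.71-fold lower, whereas a hypoxia-responsive family gene (Eucgr.H04538) was 6.70-fold higher, with 9.89 against 7.15.

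Chaperones were not of 1 direction. A DnaJ-domain gene (Eucgr.I01393), from the family of partners of Hsp70, was 44.4-fold lower, with 3.20 at 10 °C, 8.68 at 20 °C and 8.61 at 30 °C. A second (Eucgr.J03121) was 2.90-fold lower, and another with tetratricopeptide repeats (Eucgr.K03539) was 2.17-fold higher. Heat shock transcription factor A2 (Eucgr.C03424), an amplifier of the heat response, was 2.09-fold lower. The list stood at 1 higher and 3 lower of 6, and at 2 higher and 1 lower with the median subtracted. Alpha-vacuolar processing enzyme (Eucgr.J03187), a protease that matures other vacuolar proteins, had 0.23 at 10 °C, 5.66 at 20 °C and 1.72 at 30 °C. Its 43.0-fold difference between 10 and 20 °C rests on a 10 °C value near the floor. With a pseudocount of 16 on the linear scale the log2 difference went from -5.43 to -1.95. Ankyrin repeat proteins, a broad class of adaptor proteins, were lower in 7 and higher in 0 of 8 cases, 3 and 0 with the median subtracted.

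Transporters were near even, 10 higher and 12 lower of 34, and turned to 15 higher and 5 lower with the median subtracted. All 4 members described as ABC transporters or non-intrinsic ABC proteins that were called were higher, by 2.13-fold (Eucgr.B01388) to 3.38-fold (Eucgr.A01006). Uncalled members of this kind were not counted, and 37.6% of all called genes were higher. Both purine permeases described as number 10 were lower, by 3.07-fold (Eucgr.D00324) and 4.82-fold (Eucgr.D00326). Both vacuolar iron transporters were lower, Eucgr.C02475 by 9.15-fold and Eucgr.F02714 by 2.33-fold. A mechanosensitive channel gene (Eucgr.C03563), from a family of ion channels opened by membrane tension, was 5.85-fold higher, with 11.39 against 8.84. Major facilitator genes were even, with 4 higher and 4 lower.

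Lipid genes had 2 higher and 5 lower of 10, and 3 higher and 2 lower with the median subtracted. Among all 547 genes, 26.0% were higher and 43.1% lower. Whether the lipid list departs from these shares was not tested. All 3 patatin-like proteins, which are lipid hydrolases, were lower by 2.27-fold to 2.43-fold, and none of them was still called with the median subtracted. A long-chain fatty alcohol dehydrogenase (Eucgr.K02114) was 8.54-fold lower and GDSL-motif lipase 5 (Eucgr.L00835) 17.4-fold lower, the second of these from 5.05 to 0.92. A pair of neighbouring GDSL-like lipases was higher, and both had low values at 20 °C. Cytochromes P450 and glycosyltransferases had 4 higher and 10 lower of 18, and 5 higher and 4 lower with the median subtracted. A departure of this list from the shares over all genes was likewise not tested. The lowest was a cytochrome P450 (Eucgr.L00957) at 7.12-fold (6.74 against 9.58).

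Genes of dividing cells were few, 2 higher and 0 lower of 3, or 3 and 0 with the median subtracted. Cyclin B2;3 (Eucgr.J02529), a mitotic cyclin, and the catalytic subunit of DNA polymerase epsilon (Eucgr.B03882) were each higher, by 2.33-fold and 2.35-fold. A 30S ribosomal protein gene (Eucgr.A01406) was 9.47-fold lower, with 7.24 against 10.49. Of the tissue markers in this table, the xylem marker (laccase 17) and both phloem markers (glucan synthase-like 7 and phloem protein 2-A1) were among the higher genes at 1.61, 1.21 and 1.27, and those of cork and green cortex were not called at -0.78 and -0.99. The part of tissue makeup in the other differences was not tested.

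**Figure D4:**
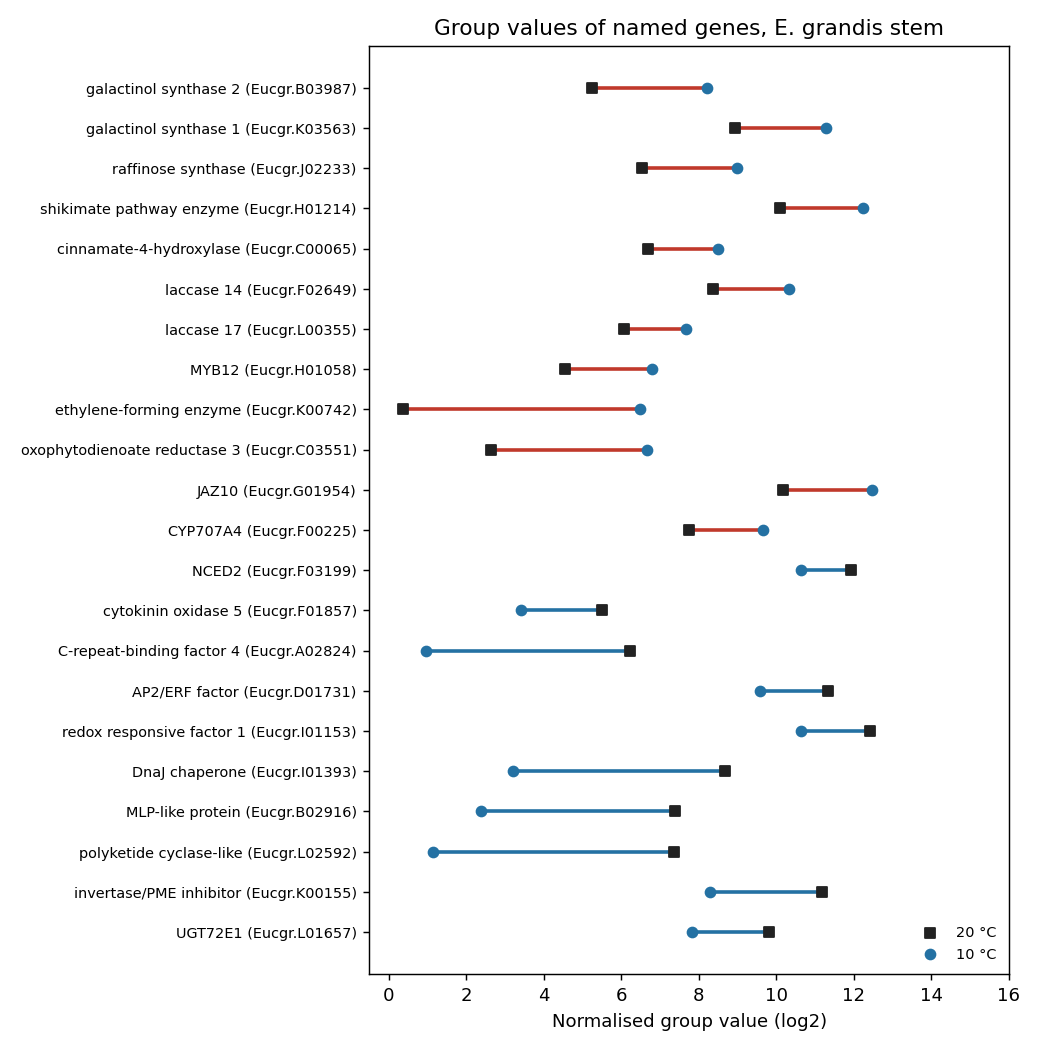
Authors' log2 group values (horizontal axis) at 10 °C (circles) and 20 °C (squares) in ambient CO2 for genes described in the text (vertical axis, by role). A red line marks a gene higher at 10 °C and a blue line a lower one, and the longest lines are those of ethylene-forming enzyme Eucgr.K00742 at 6.12 and of Eucgr.L02592 at -6.23.

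Some genes with the same description sat close together. With gene ends within 100 kb, 13 groups of 33 called genes shared a description. In 12 of them all members had 1 direction, 5 groups higher and 7 lower, and the only mixed one was a pair of major facilitator genes (Eucgr.B02014 higher and Eucgr.B02018 lower). Besides the CBF, ethylene-forming enzyme and laccase 14 groups these included 2 genes of acyl-activating enzyme 18, both higher, and pairs of methyl esterase 3, purine permease 10 and MLP-like protein 423, all lower. Reads shared between copies could give them alike values, and this was not tested. Only called genes entered these groups, so uncalled neighbours were left out. Over all called genes 142 were higher and 236 lower, and most groups were pairs. Some agreement in direction would arise from these shares alone, and whether 12 of 13 exceeds it was not tested.

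Among the higher genes 21 were listed at 0 at 20 °C, 11 of them with a description, and 8 of the 21 were listed at 0 at 30 °C as well. No fold is given for these. They include a PEBP family gene (Eucgr.B01458), from the family of the flowering signal FT and its antagonists, with 2.70 at 10 °C and 0 at 20 and 30 °C. PLANT CADMIUM RESISTANCE 11 (Eucgr.G02339) had 2.51, 0 and 0. The highest of the described ones was a GDSL-like lipase (Eucgr.J02470), with 4.63, 0 and 3.83. Only 3 lower genes were listed at 0 at 10 °C, among them syntaxin of plants 124 (Eucgr.E03461), a vesicle fusion protein, from 2.70 at 20 °C, and an aspartyl protease (Eucgr.H03578), from 3.70. Another 7 higher genes had a 20 °C value above 0 and below 1, and 9 lower genes a 10 °C value in that range.

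Genes on either side of the call differed by hundredths. Just inside it lay PLATZ transcription factor Eucgr.F03621 and major facilitator Eucgr.G02877, both at -1.01, and chorismate mutase 2 at 1.01. Just outside lay HSP20-like chaperone Eucgr.L02712 at 0.99, major facilitator Eucgr.B01090 at -0.99 and uncoupling protein 5 (Eucgr.I00553), also at -0.99.

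The same table gives 159 of 547 genes (29.1%) at least 2-fold apart between 30 and 20 °C, 101 higher and 58 lower at 30 °C. That comparison shares its control with the one at 10 °C, so only the values of single genes are set side by side here, as above. In 10 °C with 700 ppm CO2, the authors' table of that group lists 222 of the 378 called genes, 72 of the higher and 150 of the lower. For 156 of the 222 the value at 10 °C in elevated CO2 was within 1 on the log2 scale of that in ambient CO2, for 19 it was at least 1 above and for 47 at least 1 below. The median absolute difference between both 10 °C groups was 0.52. Whether a shift in scale between both groups adds to this split was not tested. Genes further up included Eucgr.B01896 of the chlorophyll A-B binding family, at 13.05 in elevated CO2 against 11.57 in ambient CO2. PLANT CADMIUM RESISTANCE 11 was at 4.25 against 2.51. Redox responsive transcription factor 1 was among the genes further down, at 7.25 in elevated CO2 against 10.64 in ambient CO2. The DnaJ gene Eucgr.I01393 was at 0.82 against 3.20, and the VQ motif gene Eucgr.H02317, from a family of WRKY partners, at 5.44 against 8.03. That list was selected against the same 20 °C control, so genes in which elevated CO2 brought the value back towards the control would be missing from it.

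E. globulus at the same temperatures shares no sample with these groups. Its table of 3 temperatures holds 7453 genes, of which 3721 (49.9%) differed at least 2-fold between 10 and 20 °C, 2020 higher and 1701 lower. Higher genes were 54.3% of those called, against 37.6% in E. grandis. With the median of the E. grandis table subtracted, the E. grandis share was 63.7%. The E. globulus share was not rescaled, so 63.7% and 54.3% are unlike measures. The order of the species in this share is therefore not settled. Of the 378 E. grandis genes, 275 (72.8%) stood in the E. globulus table, and 188 of these 275 were called in it. The 188 are 49.7% of all E. grandis genes called and 5.05% of those called in E. globulus. The base of the 49.7% includes the 103 genes that E. globulus does not list. It is therefore not comparable with the 49.9% called over the whole E. globulus table. Among the 188, direction was the same for 183, 73 higher and 110 lower, and opposite for 5. Neither the overlap nor a difference between species was tested. Within the 183, the median absolute difference was 1.92 in E. grandis and 1.77 in E. globulus, and 99 were further apart in E. grandis. The other 87 genes listed for E. globulus were under 2-fold there, and 103 were not in its table.

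Several of the leading genes had the same direction in both species, with sizes that were close or apart. Eucgr.B01008 was 4.75 higher on the log2 scale in E. grandis and 4.67 in E. globulus, oxophytodienoate-reductase 3 (Eucgr.C03551) 4.01 and 5.15, and germin 3 (Eucgr.F04417) 3.13 and 5.74. The MLP-related gene Eucgr.L02592 had -6.23 and -5.39. The CBF genes were less far apart in E. globulus, where 7 of 10 were lower, the median was -1.70 and the range -2.02 to 0.12. In E. grandis the median was -3.63, but 4 of the 10 were close to the floor at 10 °C. The size of the gap between the species is therefore uncertain. The 2 opposite genes that were higher in E. grandis were both raffinose genes. Galactinol synthase 1 (Eucgr.K03563) had a difference of 2.35 in E. grandis and -1.02 in E. globulus, where its values were 7.47 at 10 °C and 8.49 at 20 °C. The raffinose synthase gene Eucgr.J02233 had 2.48 and -1.12, with 5.56 and 6.68 in E. globulus. In the other direction a gene of the invertase/pectin methylesterase inhibitor superfamily (Eucgr.A02883) had -1.19 and 1.49, an aspartyl protease (Eucgr.L02533) -1.08 and 1.22, and a major facilitator gene (Eucgr.C04215) -1.43 and 2.75. All 5 had values of at least 5.14 in both species. With the median of the E. grandis table subtracted, the 3 genes lower in E. grandis lost their call there, each being under 3.42-fold apart. The 2 raffinose genes kept theirs. None of the 5 was retained in this count when a 4-fold difference was asked of both species. At that limit 54 genes were shared and all had the same direction.

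**Figure D5:**
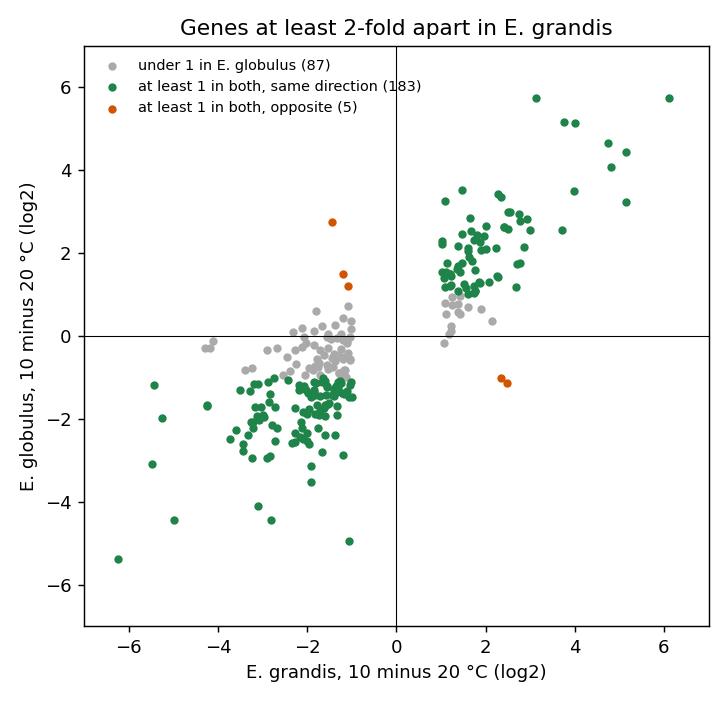
Difference between 10 and 20 °C on the log2 scale in E. grandis (horizontal axis) and E. globulus (vertical axis) for the 275 called E. grandis genes that stand in both tables, with lines at 0. Green points are the 183 genes called in both species with the same direction, orange points the 5 with opposite directions and grey points the 87 under 2-fold in E. globulus.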

How the data were processed

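Stem RNA was taken with a CTAB method and sequenced from Illumina libraries, per the labels' protocols. The submitters' processing notes name Bowtie2 and DESeq but neither a version nor a role. For the genome build and the counting, no statement is given in the sources used here. Per the file headers the authors normalised the deposited values, which are log2 values with a floor of 0 and number 1 per gene and group. How 3 samples became 1 value is not stated there. The table of 3 temperatures holds genes that passed the authors' one-way test at a corrected p of 0.05 and a fold of at least 2 in at least 1 pair, per the file headers, and so gives no p for the pair of 10 and 20 °C. The 2 tables in elevated CO2 hold genes that passed a moderated test against the 20 °C control at the same limits, per the file headers. The log2 fold change that the authors deposited equals the difference of the group values in all 547 genes, and their deposited fold (a ratio of at least 1) its power of 2, at a tolerance of 0.0001.

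From these values the difference of 10 minus 20 °C was taken for each gene and called at 1, with Python 3.11.15 and pandas 2.3.3. Folds are powers of 2 of these differences, and no fold is given where a group is at 0. No value per sample was used, so no test was run and neither error nor depth is known. Gene lists (25) and families are patterns on the files' descriptions, which 468 of the 547 genes carry. Genes and lists were chosen with earlier results of these data known, and some patterns were widened or narrowed after the descriptions had been read. The families set beside the lists were likewise picked after the values were seen. Named genes are up to 4 of the highest and of the lowest per list, the 10 highest and 10 lowest with a description, described genes at 0 in a group and the 5 nearest the call on each side. Others, such as cinnamate-4-hydroxylase and redox responsive transcription factor 1, were chosen after their values were seen. Positions served only for distances between gene ends. No promoter or protein sequence was used here.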

Additional observations from a re-analysis of the deposited data

How the results depend on the processing

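A stricter call at a difference of 1.5 left 239 genes, 90 higher and 149 lower, and a call at 2 left 148, 55 higher and 93 lower. Subtracting the median difference of the table gave 317 genes, 202 higher and 115 lower. Without genes at 0 in a group 354 genes were called (121 higher, 233 lower), with a mean value of at least 5 there were 296 (109 and 187), with a pseudocount of 16 on the linear scale 311 (109 and 202), and with each description counted once 269 (102 and 167). Of the 113 genes named by list, by rank or for a value of 0, 99 were still called with the median subtracted and 91 with the pseudocount. Neither setting can turn the direction of a called gene. The genes nearest the call and those chosen after their values were seen are outside the 113. These counts therefore do not cover every gene named in the text. At 4-fold in both species 54 genes were shared with E. globulus, 54 in the same direction and 0 opposite. No paired analysis was possible because the columns hold 1 value per group and no value per sample, and leaving out each replicate in turn was not run for the same reason. The words planned for promoters were not searched, since no promoter sequence was used here. Low values are the least certain, since depth is unknown, and the spread between plants cannot be set beside any difference.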
